A study of Mus musculus with 6 samples.

Results

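The genes described here are 49 genes of DNA replication and S phase, the part of the cell cycle in which the genome is copied. They were taken by symbol from a list of replication factors that falls into 8 role groups: origin licensing, helicase activation, primase and polymerases, clamp and single-strand binding, Okazaki fragment joining, nucleotide supply, chromatin assembly and cell cycle control. The count table listed 54429 genes, all 49 were among them, and all 49 passed the filter on low counts that left 16065 genes for testing. They lie on 14 chromosomes, with 1 of them, Pola1, on X.

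Expression was measured by RNA-seq of ribosome-depleted RNA from primary aortic endothelial cells (EC) of adult wild-type C57BL/6 mice, bought as a cell culture. One group received a lentiviral vector for overexpression of the homeobox transcription factor Meis1 (Meis1-OE), the other a YFP control vector (YFP-CTRL), with 3 libraries each, named A, B and C. In both groups 100000 cells were plated and exposed to virus for 48 h. At 72 h the cells positive for YFP, CD31 and VE-cadherin were sorted, and after re-plating they grew to confluency before RNA was taken from 300000 cells. The comparison asks how gene expression in EC differs when Meis1 is in excess. No source used here says that the replicates came from separate animals, so the p-values measure the spread between these cultures, which may be technical. The letters do not order the libraries.

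Values per library are in the order A, B, C, as TMM-scaled CPM (counts divided by the effective size of the library). Meis1 itself was at 2961, 3477 and 3223 CPM in Meis1-OE but only at 1.15, 1.42 and 1.87 CPM in YFP-CTRL, so each library matched its label. Library totals ran from 34176592 to 47956569 estimated counts. The 10 endothelial markers summed to 3410 to 4339 CPM in Meis1-OE and 4394 to 6035 CPM in YFP-CTRL. Of the other cell types, 7 mural markers summed to 4.38 to 6.02 CPM in Meis1-OE and 1.62 to 22.7 CPM in YFP-CTRL, with YFP-CTRL C highest through Acta2. The 6 fibroblast markers, nearly all of it Pdgfra, summed to 11.9 to 12.0 CPM in Meis1-OE and to 33.4, 49.5 and 16.1 CPM in YFP-CTRL A, B and C. Among 9 macrophage markers, C1qa, C1qb, Tyrobp and Adgre1 had 0 counts in every library, and Cd68 made up most of a sum of 69.8 to 106 CPM in Meis1-OE and 65.1 to 140.1 CPM in YFP-CTRL. YFP-CTRL C thus stood apart from YFP-CTRL A and B in Acta2 (7, 89 and 902 counts in A, B and C), besides the replication genes described next. It was lowest in Pdgfra (1130, 2005 and 707 counts), where A and B also differed. Tagln, Cnn1 and Col1a2 were highest in YFP-CTRL C as well, at 29 counts or fewer. Pdgfrb (33, 97 and 79 counts), Myh11, Cspg4 and Col1a1 did not set it apart. The part of these markers in the results was not tested.

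Before S phase, the origin recognition complex, Cdc6 and Cdt1 load the ring-shaped MCM helicase onto origins, a step called licensing. Cdc45 and the GINS complex then switch the helicase on, polymerase alpha with primase lays down primers, and polymerases delta and epsilon extend them along the sliding clamp PCNA. Many of these genes are known targets of E2F transcription factors, which are released when cyclin-dependent kinases inactivate the Rb family. In cultured endothelium the transcripts mark cells that are dividing and are low in quiescent cells. In bulk RNA, fewer cells in S phase and less of each transcript per cell cannot be told apart.

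The replication genes were at a like level in all 3 Meis1-OE libraries and in YFP-CTRL C, and lower in YFP-CTRL A and B. Their mean level on the log2(CPM + 1) scale was 5.24, 5.24 and 5.28 in Meis1-OE. In YFP-CTRL it was 3.95, 4.16 and 5.28. The SD between libraries was 0.0247 in Meis1-OE and 0.711 in YFP-CTRL (n = 3 each). Summed, the 49 genes made up 0.302, 0.281 and 0.285% of all Meis1-OE counts, and 0.113, 0.115 and 0.266% of all YFP-CTRL counts. Gene by gene, the median coefficient of variation was 4.79% in Meis1-OE and 54.7% in YFP-CTRL.

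**Figure D1:**
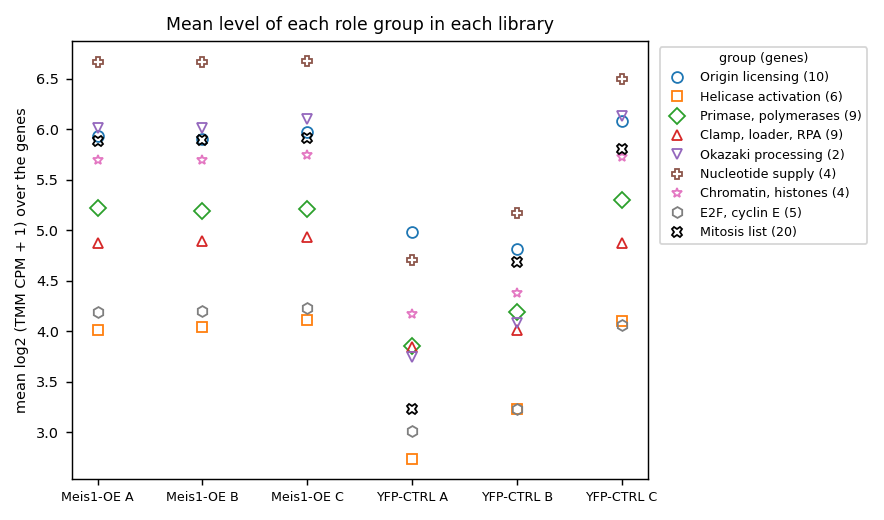
Mean level on the log2(CPM + 1) scale (vertical axis) of each of the 8 role groups and of a list of 20 mitosis genes in each of the 6 libraries (horizontal axis). Every group sits at nearly one height in the Meis1-OE libraries and in YFP-CTRL C and lower in YFP-CTRL A and B, as for licensing at 5.94, 5.91 and 5.97 in Meis1-OE and 4.99, 4.82 and 6.08 in YFP-CTRL.

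Against all 3 YFP-CTRL libraries, 0 of the 49 genes were called higher and 0 lower in Meis1-OE (edgeR quasi-likelihood test, p adjusted by Benjamini-Hochberg). Of all genes tested, 665 (4.14%) were called higher and 438 (2.73%) lower. At an unadjusted p under 0.05, 8 of the 49 were higher and 0 lower, against 12.8% of all genes higher. That count moved with the setting: it was 16 with no filter (9.26% of all genes), 17 in DESeq2 (11.9%), 19 on library totals (21.1%) and 33 with a block on the column letter (15.4%), and it ranged from 1 without YFP-CTRL B (9.93%) to 48 without YFP-CTRL C (22.3%). DESeq2 called higher 4 of the 48 to which it gave an adjusted p, namely Rfc3, Rrm2, E2f2 and Ccne1, against 6.21% of all genes called higher. The log2 difference, Meis1-OE over YFP-CTRL, was above 0 in 48 of the 49 (50.9% of all genes), the exception being Orc6. Its median was 0.72, against 0.01 over all genes, and its range was −0.10 to 1.30. With YFP-CTRL C left out, 47 of the 49 were called higher, against 16.5% of all genes, and the median was 1.26. The 2 not called were Orc6 (log2 difference −0.03) and Gins4 (0.32, adjusted p = 0.0594). Leaving out any other single library left the count at 0. In most of these genes YFP-CTRL C lay far from YFP-CTRL A and B, so leaving it out narrows the spread between controls. The SE, p-values and calls without YFP-CTRL C, here and below, follow in part from that removal and are not separate support.

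Since the call turned on YFP-CTRL C, the libraries were also read one by one. In 48 of the 49 genes, every Meis1-OE library was above both YFP-CTRL A and YFP-CTRL B, against 30.6% of all genes, and again Orc6 was the exception. In 14 genes every Meis1-OE library was above all 3 YFP-CTRL libraries, against 17.2% of all genes. On library totals in place of TMM this held for 28 genes, against 29.2% of all genes. YFP-CTRL C was at or above the lowest Meis1-OE library in 35 of the 49, against 10830 of all 16065 genes tested. It was above all 3 Meis1-OE libraries in 20 of the 49, against 5555 of all genes tested. Set against YFP-CTRL C, the Meis1-OE mean had a median ratio of 0.990 and ran from 0.755 for Cdt1 to 1.68 for E2f2. Set against YFP-CTRL A and B, the median ratios were 2.64 and 2.08. With YFP-CTRL C as the only control, a comparison chosen after the data were seen in which that lone library is assumed to vary like the Meis1-OE libraries, 1 gene (Rrm2) was called higher and 0 lower. Of all genes, 5.5% were called higher and 5.54% lower in that comparison.

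**Figure D2:**
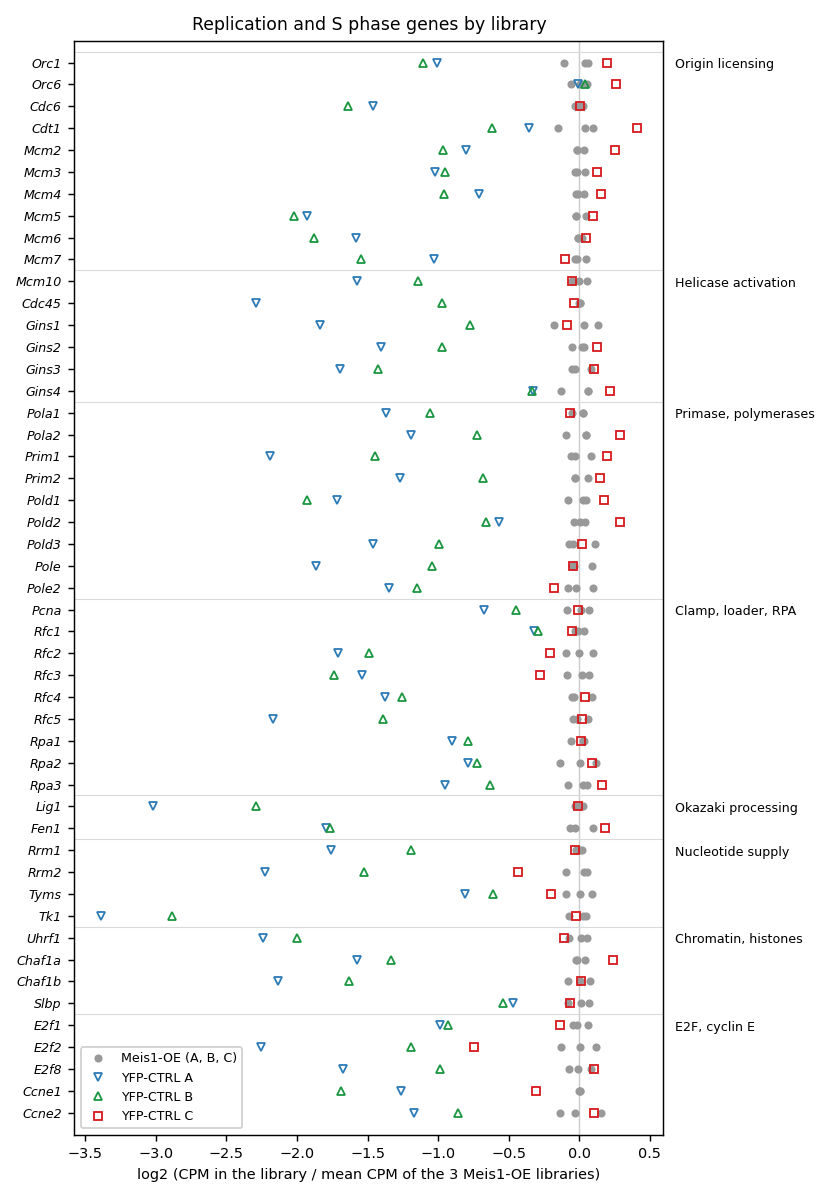
CPM of each of the 49 genes in each library over the mean CPM of the 3 Meis1-OE libraries, on a log2 axis, with genes grouped by role, grey points for Meis1-OE and open symbols for each YFP-CTRL library. YFP-CTRL A and B lie to the left of all Meis1-OE points in 48 genes (30.6% of all genes tested). YFP-CTRL C lies at or above the lowest Meis1-OE library in 35, against 10830 of all 16065 genes tested.

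Against all 3 YFP-CTRL libraries, the 10 licensing genes had the widest range of log2 differences of the role groups. It ran from Mcm5, the largest of them, to Orc6, the only negative one. Without YFP-CTRL C, the nucleotide supply genes ranged more widely (0.70 to 3.09) than the licensing genes (−0.03 to 1.96). RefSeq promoters (250 bases before to 50 bases after a gene's start, build GRCm38.p6) were listed for 9 of them, and 7 held E2F-type letters, a feature that was not used to choose the genes. The matches that lie before a listed start are shown, in 5 genes. For Mcm7, Cdc6 and Orc1 that start and the printed match lie inside the annotated span of the gene. Matches after the start, in Cdt1, in Mcm3 and a further one in Mcm7, are not printed. Each is read 5′ to 3′ on the gene's strand, and the capitals mark TTTCCCGC, TTTCGCGC, TTTGCCGC or TTTGGCGC, or the reverse complement of one of these. In Mcm5 and the upstream site of Mcm6, matches on the 2 strands overlap and are capitalised together.
Mcm5, chr8:75109340-75109383, plus strand: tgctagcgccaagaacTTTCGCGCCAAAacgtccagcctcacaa
Mcm6, chr1:128359788-128359831, minus strand: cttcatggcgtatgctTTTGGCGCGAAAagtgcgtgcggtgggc
Mcm6, chr1:128359729-128359768, minus strand: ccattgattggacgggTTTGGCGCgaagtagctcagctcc
Mcm7, chr5:138172025-138172064, minus strand: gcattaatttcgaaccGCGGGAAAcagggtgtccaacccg
Cdc6, chr11:98907997-98908036, plus strand: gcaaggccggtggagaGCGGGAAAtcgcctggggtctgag
Orc1, chr4:108579411-108579450, plus strand: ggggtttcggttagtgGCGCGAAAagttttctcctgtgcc

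Mcm5, a subunit of the MCM ring, was at 123, 123 and 129 CPM in Meis1-OE and at 32.8, 30.7 and 134 CPM in YFP-CTRL A, B and C. YFP-CTRL C was the highest of the 6 libraries, and YFP-CTRL A and B were far below the other four. The log2 difference was 0.93 (SE 0.54, adjusted p = 0.321) against all controls, 1.96 (SE 0.08, adjusted p = 0.000203) without YFP-CTRL C and −0.09 (SE 0.07, adjusted p = 0.486) against YFP-CTRL C alone.

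Mcm2, another MCM subunit, was at 132, 132 and 137 CPM in Meis1-OE and at 76.5, 68.4 and 159 CPM in YFP-CTRL A, B and C. Here YFP-CTRL C was above all Meis1-OE libraries, and the log2 difference was 0.40 (SE 0.31, adjusted p = 0.446). Cdc6, the loader that brings MCM to the origin, was at 20.4, 19.9 and 20.7 CPM in Meis1-OE and 7.36, 6.52 and 20.4 CPM in YFP-CTRL A, B and C. YFP-CTRL C fell within the Meis1-OE range, and the log2 difference was 0.83 (SE 0.41, adjusted p = 0.255).

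Orc6, the smallest subunit of the origin recognition complex, had the only negative log2 difference of the 49. It was at 22.8, 24.5 and 23.7 CPM in Meis1-OE and 23.5, 24.4 and 28.3 CPM in YFP-CTRL A, B and C. The groups overlapped, and the log2 difference was −0.10 (SE 0.12, adjusted p = 0.640), which turned to 0.04 on library totals. Among other subunits of the complex, Orc2, Orc4 and Orc5, which are outside the 49, were also negative (−0.49, −0.17 and −0.08). Orc1 (0.50) and Orc3 (0.19, outside the 49) were positive, and these subunits were not called by edgeR. Mcm7 was the licensing gene whose groups did not overlap, at 107, 105 and 112 CPM in Meis1-OE and 53.0, 37.0 and 101 CPM in YFP-CTRL A, B and C (log2 difference 0.76, SE 0.33, adjusted p = 0.196). Without YFP-CTRL C, 9 of the 10 licensing genes were called higher.

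Cdt1, which with Cdc6 loads the MCM ring, had the lowest ratio to YFP-CTRL C of the 49. It was at 48.2, 40.7 and 46.5 CPM in Meis1-OE and 35.3, 29.4 and 59.8 CPM in YFP-CTRL A, B and C. YFP-CTRL C lay above every Meis1-OE library, and the log2 difference was 0.12 (SE 0.26, adjusted p = 0.808) against all controls and −0.40 (SE 0.11, adjusted p = 0.0806) against YFP-CTRL C alone. Mcm6 was at 112, 112 and 115 CPM in Meis1-OE and 37.7, 30.8 and 117 CPM in YFP-CTRL A, B and C. Like Mcm5, it had YFP-CTRL C just above the Meis1-OE libraries (log2 difference 0.87, SE 0.47, adjusted p = 0.285). The other licensing genes, Orc1, Mcm3 and Mcm4, had log2 differences of 0.50, 0.51 and 0.42, each with YFP-CTRL C above all Meis1-OE libraries.

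In the whole promoter window, 16 of the 41 replication genes with a RefSeq promoter held an E2F-type match (39%), against 2.6% of all genes with a listed promoter and 4.53% of the genes tested. The share was 26.5% in 34 other replication genes and 54.5% in 11 genes of the Rb and E2F network, so the letters were not particular to these genes. Each start that RefSeq lists for a gene was searched, 48 promoters in all, and both strands were read. There were 22 matches, and 5 genes held more than 1. In the 100 bases before the start, 4 of 41 genes held a match (9.76%), against 0.981% of all genes and 1.74% of the genes tested. The letters CCAAT were found in 63.4% of the replication genes, 43.2% of the genes tested, 41.1% of all genes and 83.3% of 18 mitosis genes. The cell cycle homology region, searched as TTTGAA or TTCGAA, was found in 22.0% of the replication genes, 16.9% of the genes tested, 21.7% of all genes and 77.8% of the mitosis genes. YFP-CTRL C over YFP-CTRL A had a median of 2.78 in the 16 genes with an E2F-type match and 2.67 in the 25 without. A match describes letters only and says nothing of binding in these cells.

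**Figure D3:**
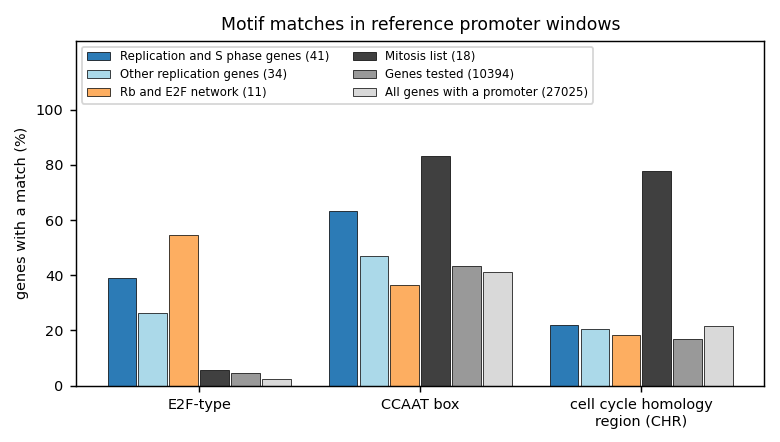
Bars give the share of genes, in percent, whose RefSeq promoter window holds an E2F-type motif, a CCAAT box or a cell cycle homology region, for 41 replication genes, 34 other replication genes, 11 genes of the Rb and E2F network, 18 mitosis genes, 10394 genes tested and all 27025 genes with a promoter. The E2F-type bar is highest for the Rb and E2F network (54.5%), followed by the replication genes (39%), and the other two motifs are highest for the mitosis genes (83.3% and 77.8%).

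Genes of helicase activation, 6 in all, had log2 differences of 0.12 to 0.83, and 5 were called higher without YFP-CTRL C. Cdc45, which joins MCM and GINS to make the active helicase, was at 31.8, 31.7 and 31.8 CPM in Meis1-OE and 6.48, 16.2 and 30.9 CPM in YFP-CTRL A, B and C. The groups did not overlap, but only by a narrow margin to YFP-CTRL C, and YFP-CTRL B lay well above A. The log2 difference was 0.83 (SE 0.47, adjusted p = 0.308). Gins4, a GINS subunit, was at 18.3, 20.9 and 20.9 CPM in Meis1-OE and 15.96, 15.9 and 23.3 CPM in YFP-CTRL A, B and C, with the controls on both sides of Meis1-OE (log2 difference 0.12, SE 0.18, adjusted p = 0.706). The remaining genes of this group were Mcm10, a scaffold at the fork (0.77), and the GINS subunits Gins1 (0.73), Gins2 (0.60) and Gins3 (0.76). In all 4 the groups overlapped through YFP-CTRL C.

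The primase and polymerase genes, 9 in all, had log2 differences of 0.25 to 0.82, and all 9 were called higher without YFP-CTRL C. Pold1, the catalytic subunit of polymerase delta, was at 74.2, 67.8 and 73.1 CPM in Meis1-OE and 21.8, 18.8 and 80.9 CPM in YFP-CTRL A, B and C. YFP-CTRL C was the highest library, and the log2 difference was 0.82 (SE 0.52, adjusted p = 0.359) against all controls and 1.81 (SE 0.10, adjusted p = 0.000395) without YFP-CTRL C. Pold2, an accessory subunit of the same enzyme, was at 59.9, 56.7 and 58.4 CPM in Meis1-OE and 39.4, 36.9 and 71.1 CPM in YFP-CTRL A, B and C. It had the smallest log2 difference of the group, 0.25 (SE 0.25, adjusted p = 0.564), and YFP-CTRL C again lay above every Meis1-OE library. The polymerase alpha and primase genes Pola1, Pola2, Prim1 and Prim2 had log2 differences of 0.72, 0.41, 0.79 and 0.48, and the polymerase epsilon genes Pole and Pole2 had 0.79 each. Pold3 was at 0.67. Of these, Pola1 and Pole2 had groups that did not overlap.

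Clamp, clamp loader and single-strand binding genes, 9 in all, ranged from 0.22 to 1.03 in log2 difference, and all 9 were called higher without YFP-CTRL C. Rfc3, a subunit of the clamp loader that places PCNA on DNA, was at 21.6, 23.2 and 24.0 CPM in Meis1-OE and 7.86, 6.86 and 18.9 CPM in YFP-CTRL A, B and C. The groups did not overlap, and the log2 difference was 1.03 (SE 0.37) with an adjusted p of 0.135 in edgeR and 0.0426 in DESeq2. Rfc1, the large subunit of the same loader, was at 75.7, 77.8 and 74.6 CPM in Meis1-OE and 61.0, 62.0 and 73.5 CPM in YFP-CTRL A, B and C. Its groups did not overlap either, although the log2 difference was only 0.22 (SE 0.11, adjusted p = 0.277). Pcna, the clamp itself, was at 98.6, 105 and 109.9 CPM in Meis1-OE and 65.4, 76.7 and 104 CPM in YFP-CTRL A, B and C. YFP-CTRL C fell among the Meis1-OE libraries, and the log2 difference was 0.35 (SE 0.18, adjusted p = 0.252). The other loader subunits Rfc2, Rfc4 and Rfc5 had log2 differences of 0.97, 0.71 and 0.89, and the groups did not overlap in Rfc2. Rpa1, Rpa2 and Rpa3, which coat single-stranded DNA, had 0.50, 0.42 and 0.39, with YFP-CTRL C at or above the lowest Meis1-OE library in each.

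Lig1 and Fen1 join Okazaki fragments, the short pieces of the lagging strand: the ligase seals them and the flap nuclease trims them. Lig1 was at 60.5, 62.3 and 63.2 CPM in Meis1-OE and 7.65, 12.7 and 61.4 CPM in YFP-CTRL A, B and C. YFP-CTRL C lay inside the Meis1-OE range and 8.03-fold above YFP-CTRL A. The log2 difference was 1.18 (SE 0.69, adjusted p = 0.319) against all controls and 2.59 (SE 0.23, adjusted p = 0.000940) without YFP-CTRL C. Fen1 was at 66.9, 65.0 and 72.8 CPM in Meis1-OE and 19.7, 20.1 and 77.3 CPM in YFP-CTRL A, B and C, with YFP-CTRL C highest (log2 difference 0.80, SE 0.51, adjusted p = 0.360).

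The nucleotide supply genes, 4 in all, had log2 differences of 0.52 to 1.30, and with TMM none of their Meis1-OE means lay below YFP-CTRL C. Tk1, the thymidine kinase of S phase, was at 46.7, 43.6 and 47.4 CPM in Meis1-OE and 4.39, 6.23 and 45.1 CPM in YFP-CTRL A, B and C. Its 10.3-fold step from YFP-CTRL A to C was the largest of the 49, and its log2 difference was 1.30 (SE 0.80, adjusted p = 0.341) with YFP-CTRL C and 3.09 (SE 0.18, adjusted p = 0.000395) without. Tyms, which makes thymidylate, was at 73.6, 69.3 and 64.8 CPM in Meis1-OE and 39.4, 45.3 and 60.1 CPM in YFP-CTRL A, B and C. The groups did not overlap, and the log2 difference was 0.52 (SE 0.17, adjusted p = 0.110). Rrm1, the large subunit of ribonucleotide reductase, was at 176, 180.0 and 182 CPM in Meis1-OE and 53.0, 78.7 and 176 CPM in YFP-CTRL A, B and C (log2 difference 0.81, SE 0.40, adjusted p = 0.244). The highest control lay just under the lowest Meis1-OE library.

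Rrm2, the regulated subunit of ribonucleotide reductase, is described because it was the gene called against YFP-CTRL C alone, and was chosen after its values were seen. It was at 170.1, 186 and 189 CPM in Meis1-OE and 38.9, 63.2 and 135 CPM in YFP-CTRL A, B and C. All Meis1-OE libraries lay above all YFP-CTRL libraries. The log2 difference was 1.20 (SE 0.40, adjusted p = 0.119) against all controls, with an adjusted p of 0.0230 in DESeq2, and 0.44 (SE 0.08, adjusted p = 0.0222) against YFP-CTRL C alone. It also had the highest level per length of the 49, 65.6 ± 3.69 CPM per kb of exon in Meis1-OE (SD, n = 3), ahead of Mcm3 at 48.9 ± 1.26, Rrm1 at 44.9 ± 0.729 and Pcna at 43.6 ± 2.36 CPM per kb. The levels of Rrm1 and Pcna differed by less than the spread between libraries. These lengths join all exons that the GENCODE M1 annotation lists for a gene, while the annotation behind the counts is not given. The ranking therefore depends on which isoforms were annotated.

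Of the 4 chromatin genes, Uhrf1, which reads hemimethylated DNA at the fork and brings in the maintenance methyltransferase, had the largest log2 difference. It was at 114, 104 and 110.1 CPM in Meis1-OE and 23.1, 27.3 and 101 CPM in YFP-CTRL A, B and C. The groups did not overlap (log2 difference 1.11, SE 0.53, adjusted p = 0.233). Slbp, which binds the stem-loop of histone mRNAs, was at 34.7, 37.0 and 38.4 CPM in Meis1-OE and 26.5, 25.2 and 35.1 CPM in YFP-CTRL A, B and C. YFP-CTRL C fell just above the lowest Meis1-OE library, and the log2 difference was 0.34 (SE 0.15, adjusted p = 0.205). Chaf1a and Chaf1b, subunits of the chromatin assembly factor that deposits histones behind the fork, had log2 differences of 0.65 and 0.94, with overlapping groups.

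Among the 5 genes of cell cycle control, E2f2 had the smallest adjusted p of the 49. This E2F family activator was lowly expressed, at 2.56, 2.82 and 3.04 CPM in Meis1-OE and 0.589, 1.23 and 1.67 CPM in YFP-CTRL A, B and C. The groups did not overlap, and the log2 difference was 1.26 (SE 0.36) with an adjusted p of 0.0829 in edgeR and 0.0151 in DESeq2. E2f1, the founding E2F activator, was at 45.9, 43.4 and 42.7 CPM in Meis1-OE and 22.2, 23.1 and 40.0 CPM in YFP-CTRL A, B and C, also without overlap (log2 difference 0.63, SE 0.23, adjusted p = 0.143).

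Ccne1, a cyclin that drives entry into S phase, was at 12.8, 12.9 and 12.9 CPM in Meis1-OE and 5.36, 3.995 and 10.4 CPM in YFP-CTRL A, B and C. Its groups did not overlap, and the log2 difference was 0.96 (SE 0.33) with an adjusted p of 0.123 in edgeR and 0.0389 in DESeq2. Its paralogue Ccne2 was at 9.54, 10.3 and 11.6 CPM in Meis1-OE and 4.65, 5.78 and 11.3 CPM in YFP-CTRL A, B and C. YFP-CTRL C fell among the Meis1-OE libraries for this gene (log2 difference 0.53, SE 0.32, adjusted p = 0.335). E2f8, a repressor of the E2F family, was at 83.4, 78.1 and 74.9 CPM in Meis1-OE and 24.7, 39.8 and 84.7 CPM in YFP-CTRL A, B and C. YFP-CTRL C was the highest library, and the log2 difference was 0.66 (SE 0.40, adjusted p = 0.331).

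**Figure D4:**
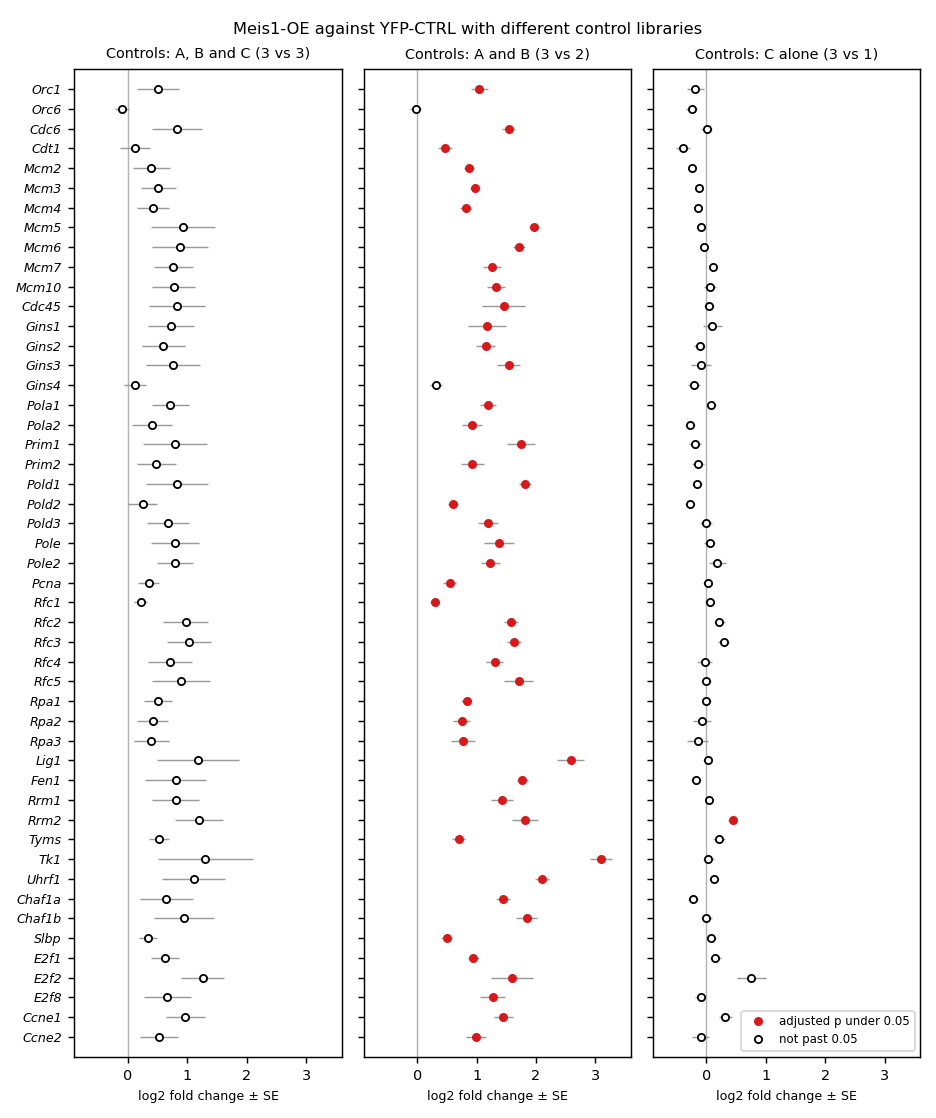
Log2 difference ± SE, Meis1-OE over YFP-CTRL, of each of the 49 genes against all 3 YFP-CTRL libraries (left), without YFP-CTRL C (middle) and against YFP-CTRL C alone (right), with filled points for an adjusted p under 0.05. There are 0 filled points on the left, 47 in the middle and 1, Rrm2, on the right.

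The spread among the control libraries was then described for itself. YFP-CTRL C exceeded YFP-CTRL A by more than 2-fold in 35 of the 49 genes, against 11.3% of all genes. At 1.5-fold the count was 45 (20.2% of all genes), and at 4-fold it was 8 (3.57% of all genes). The 95% counting interval of this ratio lay above 1 in all 49. The median step from A to C was 2.77-fold, from Orc6 and Rfc1 at the low end to Prim1 (5.24-fold), Lig1 and Tk1 at the high end. These intervals cover counting error only, since there is 1 library behind each value. They were not computed over all genes, so no share over all genes stands beside them here or below.

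YFP-CTRL A and B differed from each other less, and not in a single direction. The median ratio of B to A was 1.17 over the 49 genes, with 25 intervals above 1, 7 below 1 and 17 that spanned 1. The licensing genes had a median of 0.890, with 8 of 10 below 1, 5 of the 10 intervals wholly below 1 and 0 above. Of all 16065 genes tested, 7972 were below 1 with TMM. On library totals all 10 licensing genes were below 1, but so were 9868 of all genes tested, with a median of 0.922. Nucleotide supply genes were above 1 in all 4. From YFP-CTRL B to C the median step was 2.13-fold, and 42 of the 49 passed 1.5-fold, against 16.6% of all genes.

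A list of 20 mitosis genes, which act after S phase, had another pattern between YFP-CTRL A and B. Its mean level was 5.88, 5.89 and 5.91 on the log2(CPM + 1) scale in Meis1-OE but 3.23, 4.69 and 5.81 in YFP-CTRL. The median ratio of B to A was 3.12, and all 20 intervals lay above 1. All 20 ratios passed 1.5-fold, against 12.5% of all genes. From A to C the median ratio was 6.38. By edgeR, 0 of the 20 were called against all controls, against 4.14% of all genes higher and 2.73% lower. At an unadjusted p under 0.05, 0 passed, against 12.8% of all genes higher. All 20 log2 differences were above 0 (50.9% of all genes), and their median was 0.96.

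**Figure D5:**
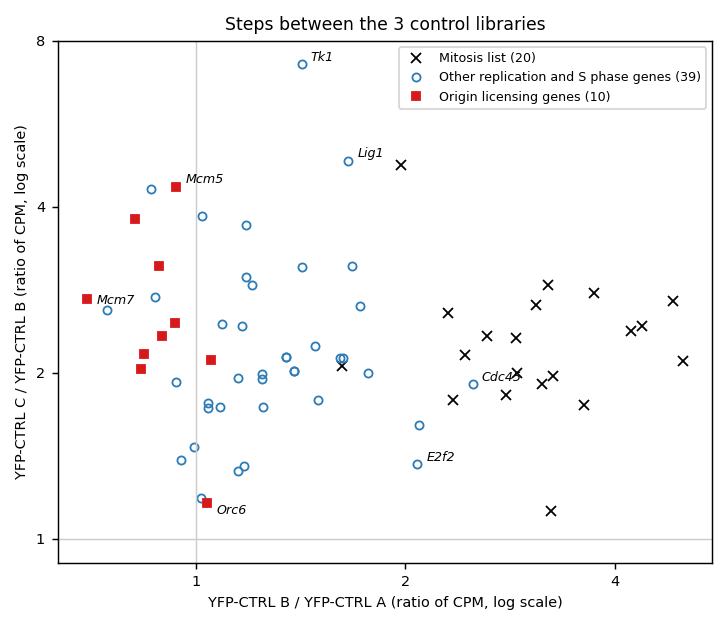
Each point is a gene, with its ratio of CPM in YFP-CTRL B to YFP-CTRL A on the horizontal axis and of YFP-CTRL C to YFP-CTRL B on the vertical axis, both on log scales, for the 10 licensing genes, the other 39 replication genes and 20 mitosis genes. Licensing genes lie mostly left of 1 (median 0.890) and mitosis genes to the right (median 3.12), while all points lie above 1 on the vertical axis.

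The rest of the replication machinery was followed in a list of 42 other genes, all of which were tested. By edgeR, 0 were called higher and 0 lower, with 3 higher and 2 lower at an unadjusted p under 0.05, and DESeq2 called 2 lower. The log2 difference was above 0 in 31 of the 42, against 50.9% of all genes, with a median of 0.45. Without YFP-CTRL C, 22 were called higher, against 16.5% of all genes, and 3 lower (Asf1a, Mtbp and Orc2), against 15.2% of all genes. The largest values were 1.57 for Dscc1, a subunit of the alternative clamp loader that serves cohesion, 1.07 for Gmnn, the inhibitor of Cdt1, and 0.97 for Chtf18, another subunit of that loader. The smallest were −0.64 for Dctd, a deoxycytidylate deaminase (adjusted p = 0.0652), −0.49 for Orc2, an origin recognition subunit (adjusted p = 0.0684), and −0.27 for the histone chaperone Asf1a. Against YFP-CTRL A and B, every Meis1-OE library was higher in 28 of the 42, against 30.6% of all genes.

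The scaling of the libraries bore on some of these readings. Library totals in place of TMM moved the median log2 difference of all genes from 0.01 to 0.15 and that of the 49 from 0.72 to 0.86. It turned the calls over all genes from 665 higher and 438 lower to 1048 higher and 179 lower, while 0 of the 49 were called. The Meis1-OE mean lay below YFP-CTRL C in 28 of the 49 genes with TMM or with DESeq2's size factors and in 13 on library totals. Over all 16065 genes tested the counts were 7860 with TMM, 7877 with DESeq2's size factors and 4881 on library totals. The side on which YFP-CTRL C falls thus depended on the scaling, in all genes as in the 49. So did the overlap of the groups: Cdc6, Mcm6, Pcna, Lig1, Tk1 and Slbp were among the genes whose groups overlapped with TMM and not on library totals. On library totals each of the 49 genes had all 3 Meis1-OE libraries above YFP-CTRL A and B. In 15 of the 49, a library's estimated count differed from a whole number by more than 0.01. Mcm2, Mcm5, Pcna, Rfc1, Tk1, Tyms and Slbp were among them. Counts that were not whole also occurred in many other genes of every library, so they were not particular to the 49. How reads were assigned to genes is not given, and the cause of the fractions was not tested.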

How the data were processed

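The authors deposited estimated counts per gene for 6 libraries in one table. Per the labels, the genome build in the submitters' processing notes was mm10, and the aligner, counter and annotation are not given in the sources used here. The values were rounded to whole counts. Groups came from the labels, and the columns carry letters where the labels carry replicate numbers. Genes passing edgeR's filterByExpr were scaled by TMM and tested with edgeR 4.0.16 (glmQLFit, glmQLFTest, R 4.3.3), with Benjamini-Hochberg adjustment over all genes tested and a threshold of 0.05. The design has 3 libraries per group, so an exact permutation test of a single gene could not go below p = 0.1 and was not used. The biological coefficient of variation was 0.233. Standard errors were taken from the log2 difference and its F statistic. DESeq2, the tool the study used, served as an alternative (here version 1.42.0), and Tk1 got no adjusted p from it. Counting intervals are 95% and cover counting error only. Levels per length used exon lengths of GENCODE M1, matched by symbol. The scripts were tested on simulated data.

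The members and lists were chosen with earlier results of these data known. Named genes were those with the largest and the smallest log2 difference of each role group, plus Pcna, Mcm2, Mcm5, Cdc6, E2f1 and Ccne1, and for the other lists the 3 largest and 3 smallest. Genes outside this rule were named after their values were seen. Alternatives were other scalings, filters and pseudocounts, DESeq2, a robust fit, a replicate block and leaving out each library.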

Additional observations from a re-analysis of the deposited data

How the results depend on the processing

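A robust fit, DESeq2's size factors, dropping the filter or a minimum of 10 counts per library left 0 of the 49 genes called and the counts over all genes within 1.5 times. Library totals gave 1048 genes higher and 179 lower over all genes and 1 of the other replication genes higher, and Orc6 went to 0.040. DESeq2 called 4 of the 49 higher, 1128 genes higher and 1115 lower over all genes, and 2 other replication genes lower. Leaving out each library in turn, the 49 gave 0 to 47 calls higher, all genes 115 to 2717 higher and 16 to 2498 lower, and the other replication genes 0 to 22 higher and 0 to 3 lower. The highest count of the 49 came without YFP-CTRL C, and the median log2 difference ranged from 0.42 to 1.26. With YFP-CTRL C as the only control, chosen after the data were seen, 1 of the 49 was higher, 946 genes were lower over all genes, and 1 other replication gene was higher and 2 lower. The median of the 49 was then −0.0071, and 27 of the 49 were negative. Named genes that changed sign from the comparison with all controls were Mcm5 (−0.090), Gins4 (−0.21), Pold1 (−0.17), Pold2 (−0.28), Fen1 (−0.17), Ccne2 (−0.10) and Mcm2 (−0.25). The cause was not tested. A 4-fold step from YFP-CTRL A to C was passed by 8 of the 49, and in the 100 bases before the start 4 genes held an E2F-type motif and 4 a cell cycle homology region. With a replicate block on the column letter, 0 of the 49 were called, the median was 0.87, and all genes gave 544 higher and 189 lower. Same-letter deviations from the group means correlated at 0.245 (A), 0.190 (B) and 0.0809 (C), and those of different letters at −0.301 to 0.249. Meis1-OE A and B each correlated best with the control of their own letter, and Meis1-OE C with YFP-CTRL B. Deviations from a group mean sum to 0, so these values cannot decide whether the letters are pairs. The main fit did not treat them as pairs. Counting depth was lowest for E2f2, at 0.589 CPM in YFP-CTRL A.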

Other observations

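Of 7 cyclin-dependent kinase inhibitor genes, 2 were called higher and 1 lower in Meis1-OE by edgeR, against 4.14% and 2.73% of all genes tested. Cdkn1c, which encodes p57, was at 4.70, 4.54 and 3.89 CPM in Meis1-OE and 0.500, 0.564 and 0.528 CPM in YFP-CTRL A, B and C, with a log2 difference of 3.03 (adjusted p = 0.00153). In this gene YFP-CTRL C lay beside YFP-CTRL A and B. Cdkn2d was also called higher (log2 difference 1.73, adjusted p = 0.0319). Cdkn2b was at 39.6, 41.4 and 43.9 CPM in Meis1-OE and 100.4, 115 and 72.3 CPM in YFP-CTRL A, B and C, and was called lower (log2 difference −1.20, adjusted p = 0.0122). Cdkn1a (−0.24) and Cdkn2a (−0.38) were not called, nor was Cdkn2c (1.79, adjusted p = 0.110).

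Among 15 genes of the Rb and E2F network, 0 were called higher or lower by edgeR and 4 were higher and 2 lower at an unadjusted p under 0.05. The largest log2 differences were 0.996 for Rbl2, a pocket protein of resting cells (adjusted p = 0.0609), 0.97 for its relative Rbl1 and 0.89 for the S phase cyclin Ccna2. The smallest were −0.32 for E2f4, −0.32 for Cdk6 and −0.17 for E2f3.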
